A study of Mus musculus with 25 samples.

Results

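The interaction of genotype with a high dose of P is the response to high P in 5xFAD mice minus the response to high P in wild-type mice. It was computed gene by gene from cortical RNA sequencing in 20 of the 25 libraries of the series, in 4 groups of 5 mice: wild-type mice on vehicle (WT_Veh), wild-type mice on high P (WT_HighP), 5xFAD mice on vehicle (AD_Veh) and 5xFAD mice on high P (AD_HighP). The 5 libraries of 5xFAD mice on low P were not used here. P is a natural product derivative, and its identity, dose, route and duration, like the strain and age of the mice, were not given in the sources used here. Of the 54532 genes listed, 16085 had at least 0.5 FPKM (fragments per kilobase of gene, scaled to the size of the library) in at least 5 of the 20 libraries, and these were tested. Membership used only this level and the labels, not any response.

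The 5xFAD line carries human transgenes, mutant APP among them, driven by Thy1 regulatory sequences and so expressed mainly in neurons. It accumulates amyloid in the cortex without the tau tangles of the human disease, and each 5xFAD group therefore models amyloid deposition and the glial reaction to it. Around plaques, microglia signal through the receptor TREM2, lower their homeostatic genes and raise lysosomal, lipid and antigen-presenting genes, while astrocytes become reactive. An interaction of 0 means that high P moved a gene by the same log2 amount in both genotypes. A positive value means that the 5xFAD response lay above the wild-type one, and a negative value that it lay below.

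The libraries held 15518358 to 17698222 reads assigned to genes, with a mean of 16611259. Each group had 3 males and 2 females, judged by Xist and genes of the Y chromosome. The genotype labels were checked on Thy1, whose sequences drive the transgenes. Its level was 176, 156, 165, 136 and 144 FPKM in WT_Veh and 182, 179.5, 179, 196 and 190.4 in WT_HighP, against 563, 397, 487, 479 and 366 in AD_Veh and 513, 493, 437, 429.5 and 436 in AD_HighP. Every 5xFAD mouse lay above every wild-type mouse, and the Thy1 interaction was -0.24 (95% interval -0.53 to 0.06, adjusted p = 0.546, limma). The mouse gene App had an interaction of 0.04 (-0.14 to 0.22). Cortical excitatory markers were present in all libraries, with Camk2a at 337 FPKM or more. The hypothalamic transcripts Hcrt and Pmch were at most 0.155 and 0.321 FPKM. Other markers of thalamus and hypothalamus, Prkcd and Tcf7l2, were detected in all libraries. Prkcd ranged from 0.96 FPKM in WT_Veh 4 to 5.22 in WT_HighP 1. The summed level of thalamus and hypothalamus markers ranged from 18.7 FPKM in WT_Veh 4 to 48.5 in WT_Veh 3. Markers of striatum were also detected in all libraries, at summed levels from 126 FPKM in AD_HighP 4 to 1753 in WT_Veh 4. The samples may thus not all have been cortex alone, and how much striatal, thalamic or hypothalamic tissue each held was not tested. In 5 libraries the choroid plexus marker Ttr was over 5 times its median. It was at 484 to 820 FPKM in WT_HighP 1 and 2 and AD_HighP 1 and 4, but at 58.2 in WT_Veh 1. The plexus markers Folr1 and Kl were at most 0.287 and 1.21 FPKM in WT_Veh. They reached 4.09 and 6.74 in WT_HighP and 4.2 and 6.4 in AD_HighP.

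No gene passed the test of the interaction at an adjusted p of 0.05 (0 of 16085, 0%). The smallest adjusted p was 0.0939, and 1675 genes (10.4%) had an unadjusted p under 0.05, of which 839 were positive (5.22%) and 836 negative (5.2%). A second test, limma with voom weights on the reads recovered from the FPKM, also called 0 genes and gave 1702 at an unadjusted p under 0.05. The precision was limited: the median standard error of an interaction was 0.19 on the log2 scale, with 16 residual degrees of freedom. The 95% interval lay within a 2-fold difference in either direction (log2 of -1 to 1) for 13360 genes (83.1%), and lay wholly beyond it for 2 genes. Interactions beyond 2-fold were thus bounded for most genes, and smaller ones were not.

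The responses that enter the interaction differed in their own counts. In wild-type mice, 1339 genes rose (8.32%) and 1190 fell (7.4%) on high P, 2529 in all (15.7%), and 524 of them by at least 1.5-fold. These counts rested on single libraries: they were 233 and 253 without WT_Veh 5, 332 and 316 without WT_Veh 4, and 2282 and 2152 without WT_Veh 1. Without WT_HighP 1, 2, 3 or 4 they were 525 to 800 and 421 to 692. In 5xFAD mice 1 gene was called (0.00622%) and 1440 had an unadjusted p under 0.05 (8.95%). This contrast of counts is not a test of a difference; the interaction is that test, and it called no gene. Of the 2529 genes called in wild-type mice, which were chosen on wild-type values, 2164 (85.6%) had the same sign of response in 5xFAD mice, against 67.5% of all tested genes. Their median absolute response was 0.42 in wild-type and 0.13 in 5xFAD mice, the first of these being inflated by the choice. Across all tested genes, the responses in the 2 genotypes, which share no library, correlated with Pearson's r of 0.37 and Spearman's coefficient of 0.44; genes are not independent replicates. Among the 1675 genes at an unadjusted p under 0.05, the wild-type response was larger in size than the 5xFAD response for 1418.

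The gene called in 5xFAD mice was Mir124a-3 (ENSMUSG00000065454, chromosome 2), which encodes a neuronal microRNA precursor, and it is named here after its values were seen. Its recovered reads were 0 in all 5 AD_Veh libraries and 3, 4, 6, 5 and 2 in AD_HighP. In wild-type mice they were 1, 0, 0, 0 and 0 on vehicle and 5, 1, 5, 3 and 7 on high P. It was higher on high P in both genotypes (log2 2.92, adjusted p = 0.00181 in 5xFAD; 2.57, 0.00389 in wild type, limma), and its interaction was 0.35 (-0.72 to 1.41). The fold in 5xFAD mice, from a group at 0, depends on the pseudocount. The 5xFAD call was lost with voom on the reads, in males alone and in females alone. With 68 bp it is shorter than a library fragment, so its level and fold are uncertain.

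**Figure D1:**
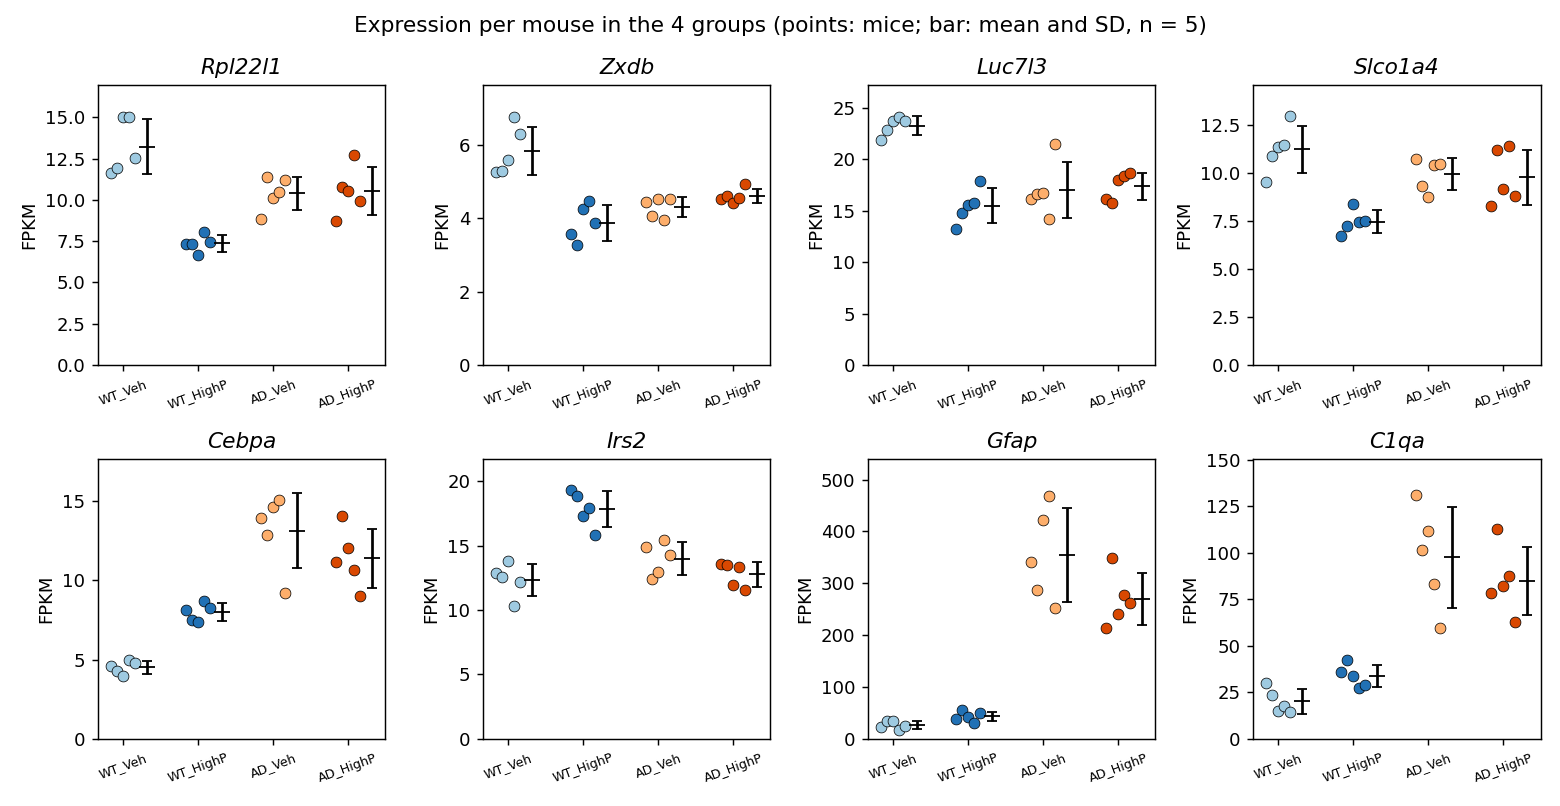
Expression in FPKM (y axis, linear from 0) of 8 genes in each of the 20 mice, by group (x axis); points are mice, and the bar is the mean with its SD, n = 5. For Rpl22l1, Zxdb, Luc7l3 and Slco1a4 the WT_HighP mice lie below the WT_Veh mice, for Cebpa and Irs2 above them, and the AD_HighP mice overlap those of AD_Veh in all 8 panels.

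The largest separations from an equal response, by unadjusted p, were those of Rpl22l1 in the positive and Cebpa in the negative direction, with Irs2 next. Rpl22l1 (ENSMUSG00000039221, chr3:28805436-28807424 in mm10) encodes a paralog of ribosomal protein L22. Cebpa (ENSMUSG00000034957, chr7:35119293-35121928) encodes a transcription factor of myeloid cells, which in brain includes microglia. The start of each coding sequence (bases 1 to 180, plus strand, GENCODE vM21 on GRCm38) is shown because the responses to high P were ordered by base composition, as described further on; capitals mark G and C.
Rpl22l1: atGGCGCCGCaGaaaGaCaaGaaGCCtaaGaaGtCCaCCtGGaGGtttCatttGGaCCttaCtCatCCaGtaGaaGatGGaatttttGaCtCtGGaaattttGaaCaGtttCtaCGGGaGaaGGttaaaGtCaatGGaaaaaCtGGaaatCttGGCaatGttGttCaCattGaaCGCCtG
Cebpa: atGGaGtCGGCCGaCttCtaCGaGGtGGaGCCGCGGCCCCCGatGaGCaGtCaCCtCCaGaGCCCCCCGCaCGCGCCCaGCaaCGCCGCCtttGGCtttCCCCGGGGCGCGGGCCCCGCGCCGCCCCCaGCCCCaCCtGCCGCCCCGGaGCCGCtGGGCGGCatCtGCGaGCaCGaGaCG
G and C make up 42.2% of the Rpl22l1 stretch and 76.1% of that of Cebpa, and 43.5% and 62.6% of the longest annotated transcript, around a median of 49.7% over tested genes.

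Rpl22l1 was at 11.6, 11.9, 15.0, 15.0 and 12.6 FPKM in WT_Veh and 7.31, 7.34, 6.66, 8.07 and 7.42 in WT_HighP. In 5xFAD mice it was at 8.85, 11.4, 10.1, 10.5 and 11.2 on vehicle and 8.70, 10.8, 10.5, 12.7 and 9.92 on high P. The wild-type groups did not overlap and the 5xFAD groups overlapped throughout. It fell by 0.80 on the log2 scale in wild-type mice (adjusted p = 0.00147, limma), with 0.01 in 5xFAD mice (SE 0.10). The interaction was 0.81 (SE 0.14, 95% interval 0.52 to 1.09, adjusted p = 0.0939, limma), not past the threshold. It passed with the replicate number as a block (adjusted p = 0.0235) and without AD_HighP 1 (interaction 0.87, adjusted p = 0.0485).

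Cebpa was at 4.60, 4.26, 3.98, 4.96 and 4.81 FPKM in WT_Veh and 8.11, 7.48, 7.36, 8.72 and 8.26 in WT_HighP, groups that did not overlap. In 5xFAD mice it was at 14.0, 12.9, 14.6, 15.1 and 9.20 on vehicle and 11.2, 14.1, 12, 10.7 and 9.03 on high P, with overlap. It rose in wild-type mice (log2 0.76, adjusted p = 0.00558), a call lost after correction for GC content (0.28, adjusted p = 0.335), and gave -0.19 (SE 0.12) in 5xFAD mice. The interaction was -0.95 (-1.30 to -0.60, adjusted p = 0.0939, limma). The 5xFAD mice exceeded wild-type mice by 1.43 on vehicle and by 0.48 on high P. The interaction of Cebpa was called without AD_Veh 5 (-1.07, adjusted p = 0.0044), the AD_Veh mouse with the lowest level, and with weights per library (adjusted p = 0.0208).

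Irs2, the adaptor that couples insulin receptors to downstream kinases, was at 12.8, 12.6, 13.8, 10.3 and 12.2 FPKM in WT_Veh and 19.3, 18.8, 17.3, 18.0 and 15.8 in WT_HighP, without overlap. It was at 14.9, 12.4, 12.9, 15.4 and 14.3 in AD_Veh and 13.6, 13.5, 11.9, 13.4 and 11.6 in AD_HighP, with overlap. It rose in wild-type mice (log2 0.52, adjusted p = 0.00560; after correction for GC content 0.26, adjusted p = 0.158, not called), and its interaction was -0.64 (-0.88 to -0.40, adjusted p = 0.0989, limma).

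Besides Rpl22l1, the 9 genes of smallest p on the positive side, among genes averaging 1 FPKM or more under a settled name, had interactions between 0.45 and 0.88 (adjusted p from 0.126 to 0.296). They were Zxdb, a zinc finger gene (0.62); Luc7l3, a splicing factor (0.62); Ier3ip1, a protein of the endoplasmic reticulum (0.62); and Timm9, a chaperone of mitochondrial protein import (0.57). The others were the cyclic AMP phosphodiesterase Pde7a (0.45), the keratin Krt20 (0.84), the noncoding neuronal transcript Snhg11 (0.88), the mitochondrial tRNA modification gene Osgepl1 (0.70) and the mitochondrial gene Ccdc58 (0.85). Among these 9, all but Krt20 fell in wild-type mice (log2 from -0.72 to -0.42), whereas the 5xFAD responses lay between 0.02 and 0.44 and none was called. After correction for GC content the falls of Zxdb, Luc7l3, Ier3ip1 and Ccdc58 were still called. Those of Timm9, Pde7a, Snhg11 and Osgepl1 were not (adjusted p from 0.123 to 0.439, limma). Krt20 gave -0.40 in wild-type mice (adjusted p = 0.0607) and was the member with the largest 5xFAD response. Zxdb was at 5.27, 5.27, 5.57, 6.76 and 6.28 FPKM in WT_Veh and 3.57, 3.26, 4.26, 4.46 and 3.85 in WT_HighP, without overlap. It was at 4.43, 4.07, 4.51, 3.94 and 4.52 in AD_Veh and 4.53, 4.60, 4.41, 4.56 and 4.93 in AD_HighP, with overlap, and its interval was 0.38 to 0.87.

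On the negative side, the 8 genes after Cebpa and Irs2 had interactions between -0.88 and -0.38 (adjusted p from 0.201 to 0.296), and they fell into 2 patterns. For Unkl, the cilium gene B9d2, the magnesium-handling gene Cnnm2, the ubiquitin ligase adaptor Fem1a and the palmitoyltransferase Zdhhc14, expression rose in wild-type mice (log2 from 0.37 to 0.81). Their 5xFAD responses lay between -0.06 and -0.01. After correction for GC content the rises of Unkl and B9d2 were still called. Those of Cnnm2, Fem1a and Zdhhc14 were not (adjusted p from 0.111 to 0.612, limma). The GTPase-activating protein Arhgap45 rose too (0.41), but not after correction for GC content (0.07, adjusted p = 0.865, limma). Vav1 and Fcgr3 gave 0.23 and 0.09 in wild-type mice, neither called. For these 3 genes of immune cells, the 5xFAD mice on high P lay below those on vehicle without overlap, but the responses were not called (-0.32, -0.65 and -0.53, adjusted p from 0.451 to 0.553, limma). Fcgr3, an activating Fc receptor of microglia, was at 15.3, 13, 17.9, 21.0 and 15.6 FPKM in AD_Veh and 10.1, 11.9, 11.6, 11.5 and 10.8 in AD_HighP. In wild-type mice it was at 5.01, 4.73, 4.99, 4.70 and 4.01 on vehicle and 5.38, 5.84, 4.60, 4.17 and 5.28 on high P, which overlapped. Its excess in 5xFAD mice was 1.70 on vehicle and 1.08 on high P, and its interaction -0.62 (-0.94 to -0.31). Vav1, a guanine exchange factor of blood cells, gave an excess of 1.40 on vehicle and 0.53 on high P.

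Genes known from amyloid plaques had mostly negative interactions, none of them called. Of 32 genes of plaque-associated microglia, 7 had an unadjusted p under 0.05, all negative (5.2% of all tested genes). Of the 32, 4 were positive and the median was -0.29, against 7907 positive of 16085 and a median of -0.00 over all tested genes. The median response of the 32 was -0.24 in 5xFAD and 0.07 in wild-type mice. The excess of 5xFAD over wild-type mice had a median of 1.71 on vehicle and 1.21 on high P, with 27 and 24 members called higher (3.22% and 1.85% of all tested genes were called higher in these comparisons). In bulk tissue, fewer cells of a type and less RNA per cell cannot be told apart.

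**Figure D2:**
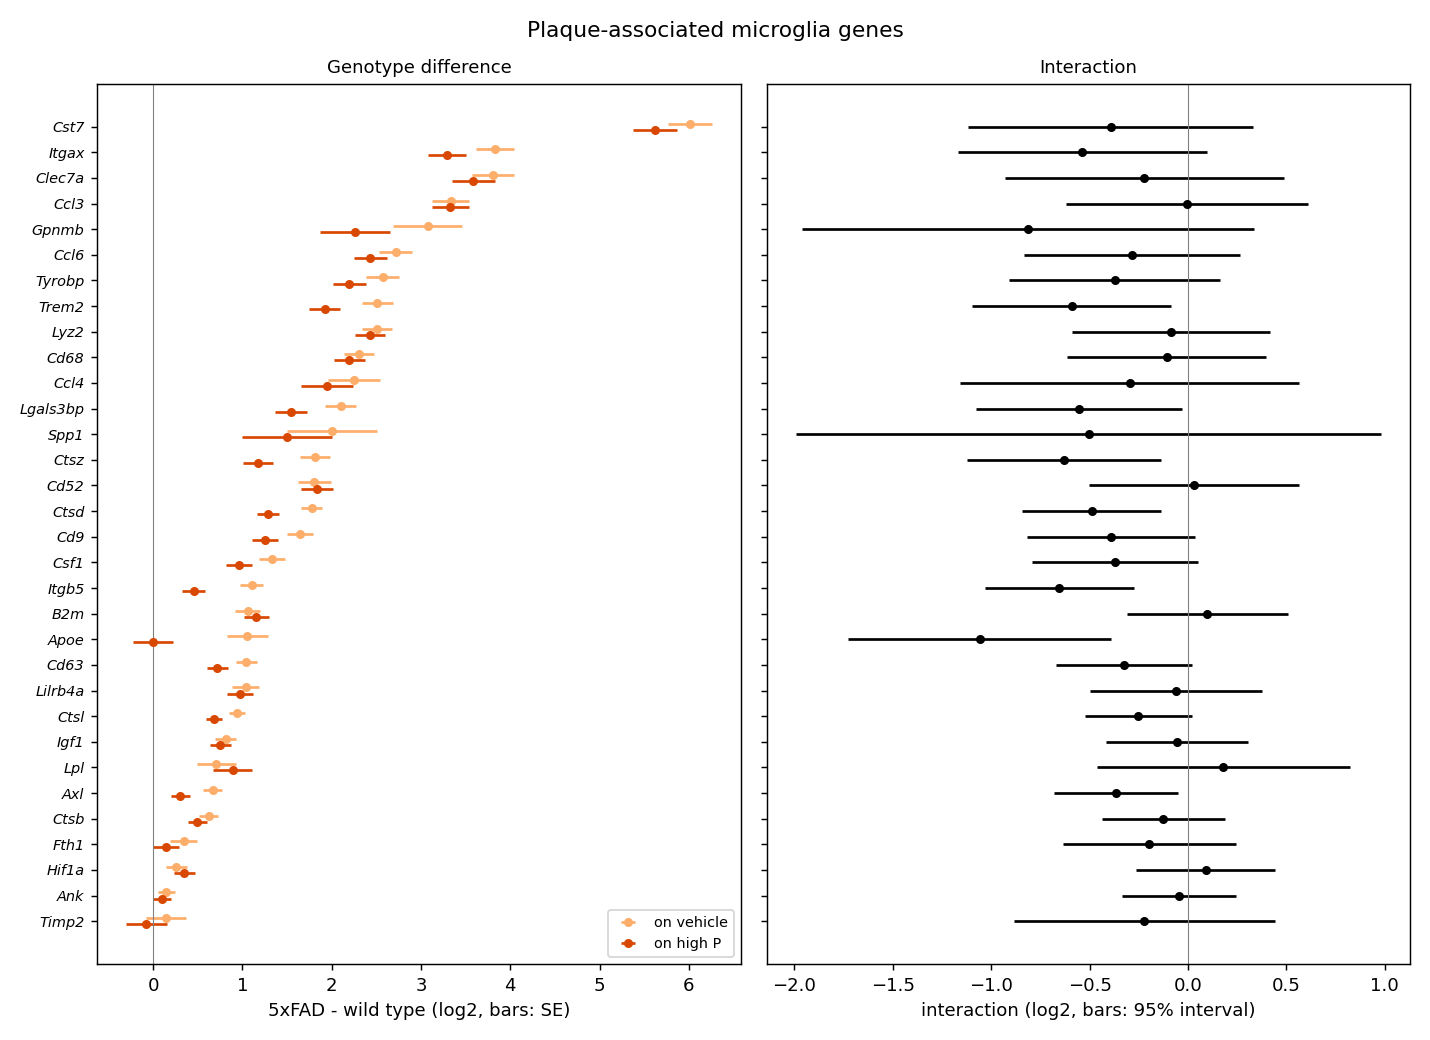
Genes of plaque-associated microglia, 1 per row. Left, log2 difference of 5xFAD minus wild type on vehicle (light) and on high P (dark), bars being SE; right, the interaction with its 95% interval. Most dark points lie left of the light ones, and most intervals on the right include 0, those of Apoe and Itgb5 being among the exceptions.

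Apoe, the lipid carrier of astrocytes and plaque-associated microglia, was at 405, 278, 302, 184 and 176 FPKM in WT_Veh and 619, 763, 546, 507 and 460.1 in WT_HighP. It was at 686, 632, 580.5, 485 and 354 in AD_Veh and 617, 771, 537, 593 and 394 in AD_HighP. The wild-type groups were apart and the other 3 groups overlapped. Apoe rose in wild-type mice (log2 1.15, adjusted p = 0.00864) and gave 0.09 in 5xFAD mice. Its difference of 5xFAD from wild-type mice was 1.06 on vehicle (adjusted p = 0.00773) and -0.00 on high P (0.998), and the interaction was -1.06 (-1.73 to -0.39, adjusted p = 0.384, limma).

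The other members differed in their responses. Itgb5, an integrin chain (-0.65), rose in wild-type mice (log2 0.42; after GC correction 0.15, not called) and gave -0.24 in 5xFAD mice. The lysosomal proteases Ctsd (-0.49) and Ctsz (-0.63), the receptors Trem2 (-0.59) and Axl (-0.37) and the secreted Lgals3bp (-0.56) had intervals below 0 with adjusted p from 0.335 to 0.457 over these 6 members. Cst7, a cystatin of plaque-associated microglia, was 0.401 ± 0.308 FPKM in WT_Veh, 0.416 ± 0.155 in WT_HighP, 56.8 ± 16.6 in AD_Veh and 45.6 ± 14.3 in AD_HighP. Its interaction was -0.39 (-1.12 to 0.33). Its wild-type level is near the pseudocount of 0.5, so a wild-type response would be understated, and the same holds for Itgax (-0.54) and Clec7a (-0.22). Tyrobp, the signalling partner of Trem2, gave -0.37 (-0.91 to 0.16). Ccl3, Cd52, Lyz2 and Lilrb4a lay between -0.09 and 0.03, so not every member shared the direction or size. Homeostatic microglia genes had 3 of 18 positive and a median of -0.27, with Selplg (-0.53), Olfml3 (-0.54) and Csf1r (-0.41) below 0 at an unadjusted p under 0.05 and P2ry12 at 0.11. Both plaque-associated and homeostatic lists were thus on the same side. The homeostatic genes were higher, not lower, in 5xFAD than in wild-type mice. Their median difference was 0.70 on vehicle and 0.60 on high P. On vehicle 12 members were called higher and on high P 11 (3.22% and 1.85% of all tested genes), with 0 called lower in either.

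Complement genes had 4 of 16 positive (49.2% of all tested genes were), a median of -0.23, and 7 at an unadjusted p under 0.05, all negative (5.2% of all tested genes). C3, the central complement component, was at 0.152, 0.235, 0.229, 0 and 0.0354 FPKM in WT_Veh, with 0 in WT_Veh 4, and 0.803, 0.536, 0.188, 0.297 and 0.278 in WT_HighP. It was at 1.20, 0.938, 1.52, 1.14 and 1.07 in AD_Veh and 0.327, 0.850, 0.313, 0.721 and 0.609 in AD_HighP, groups that did not overlap, although that response was not called (log2 -0.67, adjusted p = 0.553). Its excess in 5xFAD mice was 1.42 on vehicle and 0.22 on high P, and its interaction was -1.20 (-1.77 to -0.63, adjusted p = 0.265, limma). All WT_Veh mice lay below 0.5 FPKM, which is both the pseudocount and the filter level, and all AD_Veh mice above it. The size of the C3 interaction thus depends on the pseudocount, and over 40 other settings it ranged from -3.50 to -0.80. C1qa, the recognition chain made by microglia, was at 29.9, 23.8, 14.8, 17.4 and 14.5 FPKM in WT_Veh and 35.9, 42.4, 33.9, 27.1 and 28.9 in WT_HighP, with overlap at 1 WT_Veh mouse. It was at 131, 102, 112, 83.3 and 59.4 in AD_Veh and 78.1, 113, 82.1, 87.5 and 62.6 in AD_HighP, with overlap. Its interaction was -0.94 (-1.58 to -0.31), and those of C1qb (-0.60) and C1qc (-0.74) were of the same sign. C4b, whose reads can be shared with its near copy C4a, gave -0.79 (-1.38 to -0.19). The integrin chain Itgb2 (-0.51) and the chaperone Clu (-0.32) completed the 7, while the receptors C3ar1 (-0.01) and C5ar1 (0.07) lay near 0.

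Antigen presentation genes had the lowest median of the immune lists, -0.37, with 3 of 19 positive (49.2% of all tested genes were). At an unadjusted p under 0.05 were 5, all negative (5.2% of all tested genes). Cd74, the chaperone that escorts MHC class II molecules, gave -1.74 (-2.97 to -0.51, adjusted p = 0.386, limma). It was at 31.3, 22.5, 34.4, 26.3 and 24.4 FPKM in AD_Veh and 12.7, 20.6, 12.9, 47.3 and 9.92 in AD_HighP. The AD_HighP group thus held both the highest value of the 20 mice and 4 values below every AD_Veh mouse. In wild-type mice Cd74 was at 2.51, 1.41, 2.30, 1.05 and 0.215 on vehicle and 2.53, 5.33, 1.97, 1.96 and 7.05 on high P. The class II chains H2-Ab1 (-1.22, -2.26 to -0.19) and H2-Aa (-1.21, -2.34 to -0.07) and the class II loading factor H2-DMa (-0.55) were of the same sign, as was the class I loading factor Tapbp (-0.48). B2m, the class I light chain, gave 0.10. Interferon response genes did not share this pattern: 13 of 22 were positive, the median was 0.03 and none had an unadjusted p under 0.05, with Ifit1 at 0.34 (-0.21 to 0.89) and Isg15 at 0.48 (-0.18 to 1.14).

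Reactive astrocyte genes had 4 of 19 positive (49.2% of all tested genes were) and a median of -0.18. At an unadjusted p under 0.05 were 5, all negative (5.2% of all tested genes). Gfap, the intermediate filament of reactive astrocytes, was at 23.5, 34.8, 34.2, 17.9 and 25.4 FPKM in WT_Veh and 38.5, 55.3, 41.2, 31.3 and 49.6 in WT_HighP, with overlap. It was at 341, 288, 421, 469 and 253 in AD_Veh and 215, 348, 241, 278 and 262 in AD_HighP, with overlap. It rose in wild-type mice (log2 0.68, adjusted p = 0.0312; after GC correction 0.46, adjusted p = 0.308), gave -0.38 in 5xFAD mice (SE 0.20, adjusted p = 0.570), and its interaction was -1.05 (-1.64 to -0.47, adjusted p = 0.331, limma). The excess of Gfap in 5xFAD mice was 3.69 on vehicle and 2.63 on high P. The protease inhibitor Serpina3n gave -0.80 (-1.54 to -0.06), the small heat shock protein Hspb1 -0.96 and the filament Vim -0.71. General astrocyte markers had 7 of 18 positive and a median of -0.09.

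Splicing factors and their kinases were the list with the largest share of positive interactions, 27 of 29, with a median of 0.27 and 16 at an unadjusted p under 0.05, all positive (5.22% of all tested genes), none called. The list has a median GC content of 43.2%, and of the genes in the lowest bin of GC content described further on, 82.5% were positive, with a median interaction of 0.19. These proteins and the retained nuclear RNAs listed with them act in nuclear RNA processing. In wild-type mice 14 of the 29 fell and none rose (7.4% and 8.32% of all tested genes, and 837 and 13 of the 3215 in the lowest bin); the median response was -0.28 in wild-type and -0.03 in 5xFAD mice. Clk1, a kinase of SR splicing factors, was at 10.1, 12.1, 12.7, 16.9 and 14.1 FPKM in WT_Veh and 6.29, 6.49, 8.15, 7.16 and 7.67 in WT_HighP, without overlap. It was at 6.96, 7.26, 8.15, 8.06 and 12.2 in AD_Veh and 7.0, 6.82, 9.03, 8.68 and 6.79 in AD_HighP, where AD_Veh 5 alone stood above the rest. Its interaction was 0.69 (0.28 to 1.11, adjusted p = 0.335, limma). Luc7l3 was at 21.9, 22.9, 23.8, 24.2 and 23.8 FPKM in WT_Veh and 13.3, 14.8, 15.6, 15.8 and 17.9 in WT_HighP, without overlap. It was at 16.2, 16.6, 16.7, 14.2 and 21.5 in AD_Veh and 16.2, 15.8, 18.0, 18.4 and 18.6 in AD_HighP, with AD_Veh 5 again the highest. Without AD_Veh 5 the interaction of Luc7l3 was called (0.70, adjusted p = 0.0347). The SR protein Srsf7 gave 0.47 (0.20 to 0.73), Pnisr 0.58, Clk4 0.52, and the nuclear RNA Malat1 0.34 (-0.12 to 0.80), whereas Neat1 gave -0.43 (-1.33 to 0.47). On vehicle 6 members were called lower in 5xFAD than in wild-type mice (0.522% of all tested genes were), and on high P none was (0.528%). The median difference of 5xFAD from wild-type mice over the 29 was -0.19 on vehicle and 0.06 on high P. As the values of Clk1 and Luc7l3 show, the WT_Veh mice lay above the mice of the other 3 groups, apart from AD_Veh 5 for Clk1.

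**Figure D3:**
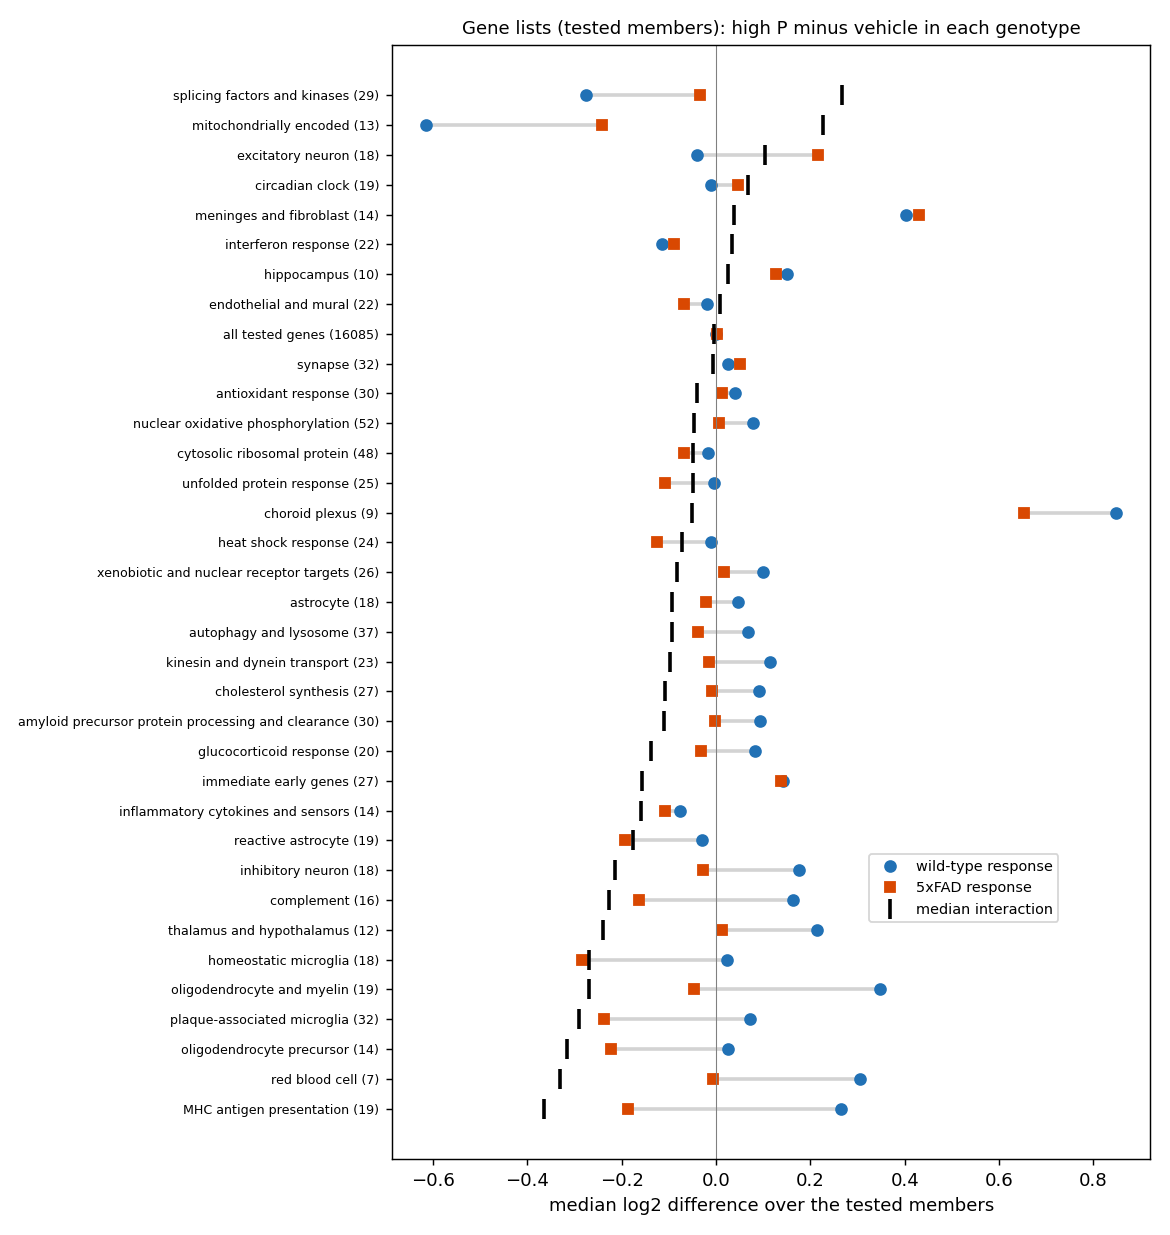
Median log2 response to high P over the tested members of each gene list (number in brackets) in wild-type (circles) and 5xFAD mice (squares), and the median interaction (vertical marks), in order of the latter. The splicing list stands at 0.27, the antigen presentation list at -0.37 and all tested genes at -0.00; the striatal list, at -1.35, and the blood leukocyte list, with 4 tested members, are left out of the plot.

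Cells of the oligodendrocyte lineage were mostly on the negative side. Oligodendrocyte and myelin genes had 2 of 19 positive and a median of -0.27, with a median response of 0.35 in wild-type and -0.05 in 5xFAD mice. Mbp, the myelin basic protein, gave -0.64 (-1.40 to 0.12) and Mag -0.63 (-1.47 to 0.22). This median was -0.89 among males and 0.55 among females, and -0.04 without the 5 libraries high in Ttr; the difference between the sexes was not tested. Precursor genes had 3 of 14 positive and a median of -0.32, with C1ql1 at -1.23 (-2.0 to -0.46), the proteoglycan Cspg4 at -0.47 and the transcription factor Olig1 at -0.68. Sterol and fatty acid synthesis genes had 7 of 27 positive and a median of -0.11. Of these, Fasn, the fatty acid synthase, rose in wild-type mice (36.0 ± 3.48 to 45.3 ± 1.37 FPKM, adjusted p = 0.0164; after GC correction log2 0.02, adjusted p = 0.927) and was 45.7 ± 4.75 and 44.7 ± 3.84 in 5xFAD mice on vehicle and high P, with an interaction of -0.36 (-0.60 to -0.13), -0.16 after GC correction. The mevalonate enzymes Mvd (-0.66) and Mvk (-0.55) and the regulators Srebf1 (-0.49) and Srebf2 (-0.28) were of the same sign.

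Neuronal lists were divided. Excitatory neuron genes had 13 of 18 positive and a median of 0.10, none at an unadjusted p under 0.05. Inhibitory neuron genes had 4 of 18 positive and a median of -0.21, with the vesicular transporter Slc32a1 at -0.73 (-1.23 to -0.23) and the peptide Vip at 0.74 (0.27 to 1.21). Synapse genes were balanced, with 15 of 32 positive and a median of -0.01. Immediate early genes had 12 of 27 positive and a median of -0.16, which became 0.11 after correction for GC content; Jun gave -0.87 (-1.39 to -0.35) and the synaptic pentraxin Nptx2 -0.58 (-1.0 to -0.16).

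Striatal markers had 0 of 16 positive and the lowest median of all lists, -1.35, from a median response of -1.63 in 5xFAD and -0.32 in wild-type mice; none was called. Their summed level was 369.8, 1058, 412, 1753 and 1205 FPKM in WT_Veh, 1384, 1056, 974, 253 and 343 in WT_HighP, 434, 1003, 634, 916 and 908 in AD_Veh and 148, 270.5, 727, 126 and 304 in AD_HighP. The spread within groups was several-fold and 4 of 5 AD_HighP libraries lay below every AD_Veh library. The median was -2.22 among males and 0.10 among females, 0.21 without the 5 libraries high in Ttr, -1.22 with GC correction and -1.37 with voom; the difference between the sexes was not tested. Drd1 and Drd2, the dopamine receptors that define striatal neurons, were at 2.03 to 58.2 and 0.611 to 97.8 FPKM, so the marker level differed widely between mice of the same group. The inhibitory neuron list had a median of -0.07 with this level as a covariate, the oligodendrocyte list -0.09, plaque-associated microglia -0.29, complement -0.33 and splicing factors 0.30.

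Mitochondrially encoded genes had 10 of 13 positive and a median of 0.23, at a median GC content of 37.1%, within the lowest bin of GC content, where 82.5% of genes were positive. In wild-type mice 8 of them fell and 2 rose (7.4% and 8.32% of all tested genes). The complex I subunit mt-Nd1 was at 6463, 7505, 6720, 7317 and 7372 FPKM in WT_Veh and 4424, 4643, 4640, 4186 and 4593 in WT_HighP, without overlap. It was at 4906, 5772, 6063, 7624 and 6966 in AD_Veh and 4247, 5647, 4998, 5662 and 5340 in AD_HighP, with overlap. Its interaction was 0.39 (0.07 to 0.71, adjusted p = 0.417, limma), and 0.14 after correction for GC content. The overlapping genes mt-Atp8 (-1.50, -2.54 to -0.45) and mt-Atp6 (-1.34, -2.38 to -0.31), whose reads can be shared, went the other way. The share of all assigned reads from these genes was 6.28 ± 0.325% in WT_Veh, 4.32 ± 0.31% in WT_HighP, 5.50 ± 1.12% in AD_Veh and 4.57 ± 0.47% in AD_HighP (SD, n = 5 each). Its interaction was 1.03 percentage points (two-sided exact permutation p = 0.0847, adjusted p = 0.0847 over the 2 values per library tested). Nuclear genes of oxidative phosphorylation had 18 of 52 positive and a median of -0.05, with Uqcrb at 0.50 and Ndufa5 at 0.35. Cytosolic ribosomal proteins had 18 of 48 positive and a median of -0.05, with Rpl18 at -0.40 and Rps3 at -0.36. Rpl23a, with many near-identical pseudogene copies and so an uncertain level, gave 0.71 (0.06 to 1.37).

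Stress and clock lists had medians between -0.14 and 0.07. Unfolded protein response genes had 9 of 25 positive (median -0.05), heat shock genes 9 of 24 (-0.07), antioxidant genes 13 of 30 (-0.04), glucocorticoid response genes 6 of 20 (-0.14) and circadian clock genes 12 of 19 (0.07). The clock output gene Dbp rose in wild-type mice (18.7 ± 3.29 to 34.4 ± 2.94 FPKM, adjusted p = 0.00558), gave 23.3 ± 4.91 to 32.5 ± 3.52 in 5xFAD mice, and had an interaction of -0.38 (-0.77 to -0.00), -0.10 after GC correction. Stub1, a ubiquitin ligase that works with chaperones, rose in wild-type mice (15.1 ± 4.13 to 31.3 ± 2.75 FPKM), gave 20.2 ± 3.74 to 25 ± 6.06 in 5xFAD mice and an interaction of -0.77 (-1.30 to -0.25), -0.51 after GC correction. Amyloid precursor protein processing and clearance genes had 12 of 30 positive and a median of -0.11, with Aplp1, a homologue of App, at -0.51 (-0.82 to -0.20). Autophagy and lysosome genes had 11 of 37 positive and a median of -0.09, with the lysosomal growth factor Grn at -0.44 (-0.79 to -0.09). Xenobiotic and nuclear receptor targets had 10 of 26 positive and a median of -0.08, and motor proteins of kinesin and dynein transport 9 of 23 and -0.10. Endothelial and mural genes had 12 of 22 positive and a median of 0.01. Among them was Slco1a4, an organic anion transporter of brain endothelium, at 9.52, 10.8, 11.4, 11.4 and 12.9 FPKM in WT_Veh and 6.70, 7.21, 8.37, 7.45 and 7.51 in WT_HighP, without overlap. Slco1a4 was at 10.7, 9.33, 8.76, 10.4 and 10.5 in AD_Veh and 8.27, 11.2, 9.17, 11.4 and 8.80 in AD_HighP, with overlap. Its wild-type response was called (-0.56) but not after GC correction (-0.28, adjusted p = 0.145), and its interaction was 0.53 (0.24 to 0.81, adjusted p = 0.331, limma). Inflammatory cytokines and sensors had 4 of 14 positive and a median of -0.16, with the cytokine Il18 at 0.61 (0.27 to 0.95). Markers of other tissue that a dissection could hold had medians of 0.04 for meninges (14 tested), -0.05 for choroid plexus (9), 0.02 for hippocampus (10), -0.24 for thalamus and hypothalamus (12), -0.33 for red blood cells (7) and -0.20 for blood leukocytes (4 of 20 symbols tested); none of their members was called. Choroid plexus markers had a median response of 0.85 in wild-type and 0.65 in 5xFAD mice, 4 of the 5 libraries high in Ttr being on high P.

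Across genes, the interaction followed the GC content of the transcript, which no rule had used. Split into 5 bins of equal size by GC content, the tested genes had median interactions of 0.19, 0.08, -0.01, -0.10 and -0.22 from the lowest to the highest bin, and the share of positive interactions went from 82.5% to 16.3%. The wild-type response went from -0.28 to 0.33 over the same bins and the 5xFAD response from -0.09 to 0.13. Spearman's coefficient with GC content was -0.53 for the interaction, 0.72 for the wild-type response and 0.38 for the 5xFAD response, across genes that are not independent. Genes at an unadjusted p under 0.05 had a median GC content of 43.4% where positive and 56.1% where negative.

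**Figure D4:**
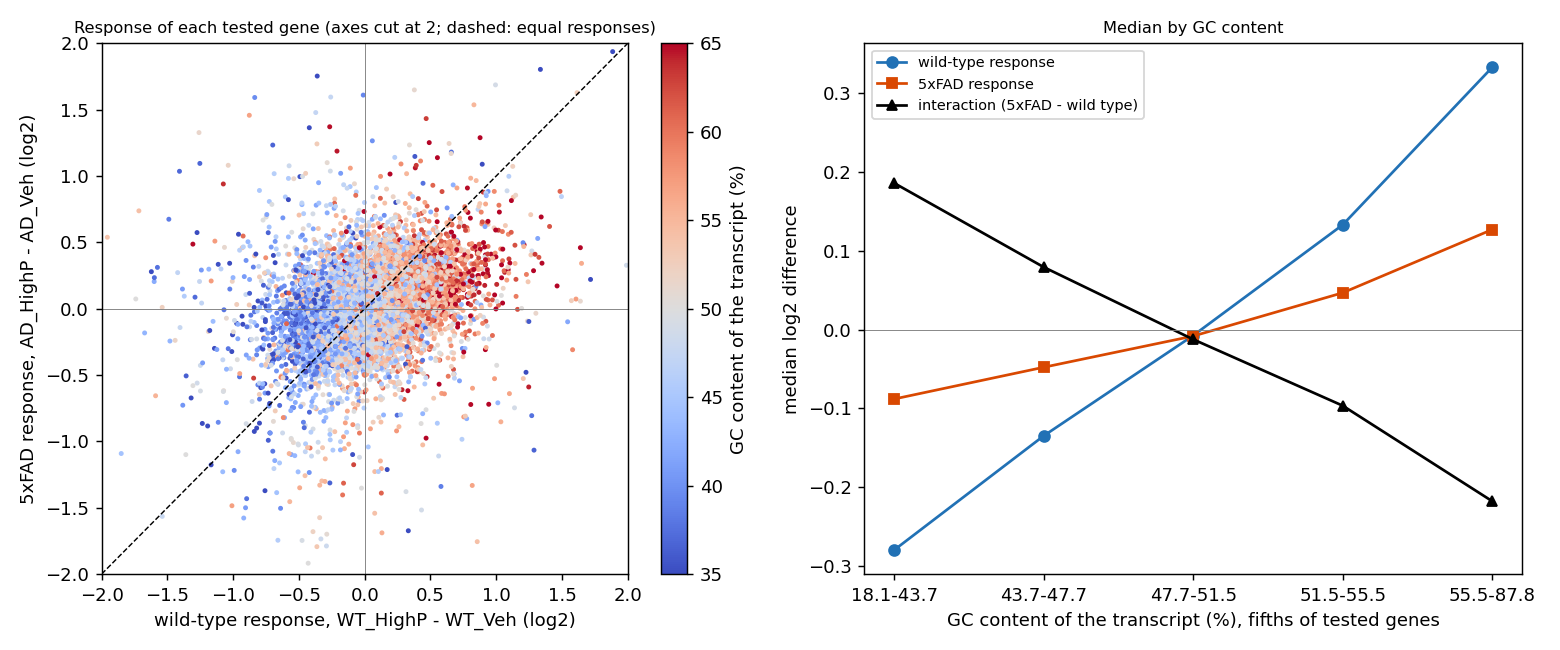
Left, log2 response to high P in 5xFAD mice (y axis) against that in wild-type mice (x axis) for each tested gene, coloured by GC content, with both axes limited to 2 in either direction and equal responses on the dashed line. Right, median responses and median interaction by bin of GC content; the wild-type line runs from -0.28 to 0.33 and the interaction line from 0.19 to -0.22.

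The same could be read per library, as the slope of each library's expression, relative to the mean of all 20, on GC content (log2 per 10 percentage points). The slopes were 0.0620, -0.116, -0.164, -0.295 and -0.308 in WT_Veh and 0.180, 0.223, 0.147, 0.181 and 0.0889 in WT_HighP, without overlap. They were 0.104, 0.0546, -0.0472, -0.114 and -0.264 in AD_Veh and 0.166, 0.116, 0.0606, 0.0265 and -0.101 in AD_HighP, with overlap. The interaction of the slope was -0.221 (two-sided exact permutation p = 0.0489, adjusted p = 0.0847), the wild-type response having p = 0.00794, the smallest that 5 against 5 allows, and the 5xFAD response p = 0.214. Within sexes it was -0.179 over 3 males a group and -0.284 over 2 females, and that of the mitochondrial share was 1.32 and 0.594 points. Males had higher slopes than females in WT_Veh, AD_Veh and AD_HighP without overlap. The unadjusted p of the interaction lay between 0.00869 and 0.0955 when 1 library was left out. After a correction of each library for GC content, the interaction still called 0 genes (smallest adjusted p 0.179, 1079 at an unadjusted p under 0.05). The wild-type response then called 72 genes higher and 46 lower, of which 101 were among the 2529, and the correlation of the responses across genes became 0.25 by either measure. With nuclear genes only, scaled by nuclear reads, the interaction called 0 of 16051 genes, with 1671 at an unadjusted p under 0.05 (limma). Apart from this scaling, the part of the mitochondrial share, which moved with the slope, in the interactions of single genes was not tested. No batch was named in the sources used here.

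**Figure D5:**
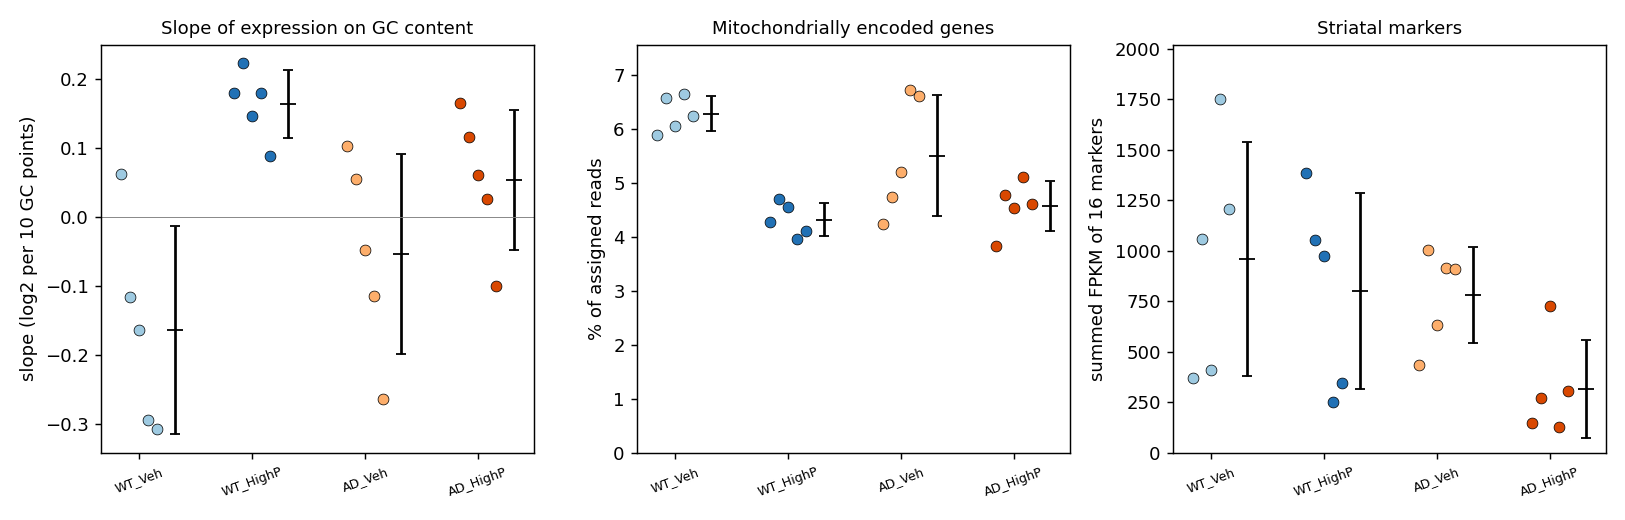
Slope of expression on GC content, share of reads from mitochondrially encoded genes and summed striatal markers in each of the 20 libraries by group; points are mice, and the bar is the mean with its SD, n = 5. The WT_HighP slopes (0.0889 to 0.223) all lie above those of WT_Veh (-0.308 to 0.0620), while the AD_Veh and AD_HighP slopes overlap, and 4 AD_HighP libraries have fewer striatal reads than any AD_Veh library.

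The GC correction changed the size of the interactions but not the sign of most list medians. Corrected medians were -0.28 for plaque-associated microglia, -0.23 for homeostatic microglia, -0.17 for complement, -0.26 for antigen presentation, -0.17 for reactive astrocytes and 0.18 for splicing factors. The medians that changed sign were those of mitochondrially encoded genes (-0.01), immediate early genes (0.11), interferon response genes (0.03 to -0.04) and synapse genes (-0.01 to 0.02). Of the 54 named genes called in wild-type mice, 15 were still called after the correction, among them Rpl22l1, Zxdb, Luc7l3, Clk1, Apoe, Dbp and Stub1. Over all tested genes it was 101 of 2529, a smaller share. Many named genes were chosen for a small p of the interaction or from earlier results of these data. Among single genes, the corrected interaction was 0.68 for Rpl22l1 (adjusted p = 0.179, limma), 0.66 for Zxdb (0.198), -0.65 for Cebpa (0.539), -0.47 for Irs2, -1.11 for C3, -0.63 for Fcgr3, -0.82 for Apoe and -0.91 for Gfap. Zxdb (50.8%) and Fcgr3 (49.2%), both with a GC content near the median, kept values close to the uncorrected 0.62 and -0.62.

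The interaction can also be read as the change of the genotype difference with treatment. On vehicle, 518 genes were higher and 84 lower in 5xFAD than in wild-type mice (602 in all, 3.74%), and on high P 298 and 85 (383, 2.38%). The 2 comparisons share no library, and 254 genes were called in both, all in the same direction; they made up 42.2% of those called on vehicle and 66.3% of those on high P. Across all tested genes the genotype differences on vehicle and on high P correlated with Pearson's r = 0.395. For genes such as Apoe, C3 and Cebpa the difference was smaller on high P, and for Rpl22l1 (-0.33 on vehicle, 0.48 on high P) and Irs2 (0.17, -0.47) it was called only on high P, but no change of the genotype difference passed the interaction test.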

How the data were processed

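Cortical RNA of 5 mice per group was sequenced as strand-specific poly(A) libraries with random priming, per the labels' protocols. The authors deposited FPKM per gene and library in a single file, with a gene length and mm10 coordinates per gene; the submitters' processing notes name HISAT2 (version not given) and mm10, and the counting tool and batches were not named in the sources used here. The mice are separate animals, per the series' design text. FPKM times length stepped in whole reads for 100% of values (within 0.01 of a read), which gave 15518358 to 17698222 reads per library. No libraries were duplicates.

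Values were tested as log2(FPKM + 0.5), which understates the changes of low genes, with limma 3.58.1 in R 4.3.3: a mean per group over the 20 libraries, moderated variances with an intensity trend, contrasts for the interaction and its parts, and Benjamini-Hochberg adjustment over the 16085 genes (threshold 0.05). P-values are two-sided. The filter was 0.5 FPKM in at least 5 libraries; 22499 genes were at 0 in all 20. GC content is that of the longest GENCODE vM21 transcript (54495 of 54532 identifiers matched); the GC correction subtracted a smooth curve (loess, span 0.5) from each library. Single values per library were tested by exact permutation over 63504 relabellings within genotypes, which is approximate for an interaction because the common response is estimated. The procedure was tested on simulated data.

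The 36 lists (850 symbols, 35 with at least 5 tested members), the named genes and the comparison were chosen with earlier results of these data known. Named genes (108) were label checks, 11 plaque genes, 10 genes from earlier results, the 10 of smallest p in each direction among genes averaging 1 FPKM or more under a settled name, and the 2 of smallest p in each list. Other list members are named as those at an unadjusted p under 0.05, or as contrasts to them, after their values were seen. Alternatives covered pseudocount, filter, scaling, GC correction, replicate block, sex, weights, voom, striatal level and each library left out. Low P libraries entered only 1 alternative. Values of some genes are not reported here.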

Additional observations from a re-analysis of the deposited data

Results flagged for a closer look

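The interaction of the slope on GC content was -0.221 (log2 per 10 percentage points, two-sided exact permutation p = 0.0489), so that the 2 genotypes differed in this measure by its own test before adjustment over the 2 values tested (adjusted p = 0.0847).

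In 19 of 440 groups of 5 mice, 1 mouse stood apart from the other 4 by Dixon's criterion, where chance gives about 1 in 20 groups (22). Among genes of the immune and glial lists these were Arhgap45 in AD_Veh 5 (2.81 FPKM), H2-DMa in AD_Veh 4 (7.60), C4b in AD_HighP 2 (80.8) and Sox10 in WT_HighP 5 (15.6). Among neuronal and clock genes they were Bcl11b in AD_HighP 3 (17.6), Nptx2 in AD_HighP 4 (9.59), Nrxn2 in WT_HighP 2 (46.2), Rorb in AD_Veh 5 (2.27) and Dbp in AD_HighP 5 (26.4). The remaining ones were Clk1 in AD_Veh 5 (12.2), Krt20 in AD_Veh 4 (1.03), Fem1a in WT_Veh 4 (10.4), Uqcrb in WT_Veh 3 (14.9), mt-Nd2 and mt-Nd4 in AD_HighP 1 (2418 and 1965), Abcg2 in AD_Veh 4 (2.93), Bmp6 in WT_Veh 3 (3.29), and Zic1 in WT_HighP 1 and AD_HighP 4 (11.3 and 3.83). Of these, AD_Veh 5 touches Arhgap45 and Clk1, whose interactions are described in the text.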

How the results depend on the processing

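The count of genes called for the interaction was 0 in the reported fit and 0 in 18 of 21 other settings; it was 2 with the replicate number as a block (Rpl22l1 and Insyn1), 1 with weights per library (Cebpa) and 1 without the 5 libraries high in Ttr (Gm43089, a processed pseudogene). Leaving out 1 library gave 0 to 2 calls. A sex term gave 0 calls, with a smallest adjusted p of 0.0505 and 2212 genes at an unadjusted p under 0.05 (limma). The 1 call of the 5xFAD response was 0 with voom, 2 with the striatal covariate, 9 among females, 1 among males and 0 with median-of-ratios scaling, sex term, GC correction and striatal covariate combined, and 1 to 1 with 1 library left out; the calls in either sex alone did not include Mir124a-3. The wild-type calls, 1339 higher and 1190 lower, were 597 and 532 without a filter, 232 and 299 with all 25 libraries, 72 and 46 with GC correction, 182 and 94 with block and GC correction, and 784 and 562 without libraries high in Ttr. They were 264 and 185 among males, 186 and 107 with sex term and GC correction, and 206 and 125 with the combined setting. Both counts were larger with the block (1938 and 1819) and with a sex term (1910 and 1805). With 1 library left out they ranged from 233 to 2282 and from 253 to 2152. The cause of these changes in the counts was not tested. The striatal covariate, the single-sex fits and the combinations were chosen after seeing the data.

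Same-numbered mice showed no strong shared deviation: over 30 pairs the correlation was -0.204 to 0.283 (median 0.0344), with 10 pairs over 0.1. Of 20 libraries, 8 correlated best with their own number. A block on the number raised the genes at an unadjusted interaction p under 0.05 from 1675 to 2322 (limma). Whether the numbers mark a pairing was not tested, and the reported fit did not use them. Numbers 1 to 3 were males and 4 and 5 females in every group, so number and sex cannot be told apart; the slope on GC content was lower at the higher numbers in 3 of 4 groups, and whether the number marks an order of processing was not given. With the means of the replicate numbers removed first, the interaction of the mitochondrial share was 1.03 points (two-sided permutation p = 0.035, against 0.0847 without this). The relabelling then ignored the numbers, so the p of 0.035 may be too small. Without that removal the interaction ranged from 0.711 to 1.33 with 1 library left out, called without AD_Veh 4 or 5. The slope on GC content had an interaction of -0.244 (two-sided exact permutation p = 0.0683) over genes averaging 5 FPKM or more and of -0.278 to -0.182 with 1 library left out.

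Of the 108 named genes, 105 were called for the interaction in none of 41 settings and 87 changed sign in none; the 3 called in some were Rpl22l1, Cebpa and Luc7l3. Over 21 settings the median interaction stayed below 0 for the plaque-associated microglia (-0.39 to -0.15), complement (-0.33 to -0.12), antigen presentation (-0.59 to -0.26) and reactive astrocyte lists, and above 0 for splicing factors (0.16 to 0.31). The settings moved the median interaction of all genes by at most 0.0247. The depth of 15518358 to 17698222 reads per library leaves few reads for very short genes such as Mir124a-3, with 68 bp and at most 7 recovered reads in a library.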
